A study of Mus musculus with 2 samples.

Results

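The mitochondrial carrier family, named Slc25 in mouse, was followed across cells of intestinal organoids grown in Matrigel or in collagen. Its members were taken as every row of the expression table whose symbol starts with Slc25a, which gave 48 of 37172 rows, 1 of them the pseudogene Slc25a5-ps. The organoids were epithelial structures grown from crypts of the proximal small intestine of C57BL/6 wild-type mice, and all were taken on day 4 of culture. The Matrigel culture, a basement membrane extract, received a medium with EGF (50 ng/mL), Noggin (100 ng/mL) and R-spondin1 (400 ng/mL) and formed budding organoids. The culture in type I collagen received the same factors plus Wnt3a (100 ng/mL), nicotinamide (10 mM) and 1% bovine serum albumin, and formed cystic spheres. Cells left Matrigel through a recovery solution and collagen through collagenase (0.5 mg/mL), after which both were dissociated with TrypLE. Matrix, medium and release method therefore differed together, and their parts in any difference cannot be told apart. Each culture was 1 suspension, tagged with its own hashtag through an EpCAM antibody, pooled with the other, captured on the BD Rhapsody system and amplified by TAS-Seq. The number of mice is not given in the labels.

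Mitochondrial carriers sit in the inner mitochondrial membrane and exchange solutes between the cytosol and the matrix. They bring in ADP and phosphate for ATP synthesis, let out ATP and citrate, move glutamate, aspartate and ornithine for the shuttles and cycles that span the membrane, and import cofactors, iron and acylcarnitines. A few members have moved to the outer membrane or to peroxisomes. In the small intestine, crypt cells divide and villus enterocytes absorb fat and amino acids, and both processes use these exchanges.

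The values came from 336 collagen cells and 1599 Matrigel cells. The median count per cell was 124619 in collagen and 179044 in Matrigel, and the median share of mitochondrial counts was 3.43% and 4.63%. Counts of a group were summed over its cells and scaled to 1000000 counts (CPM). Intervals are exact 95% Poisson intervals and cover counting error only. Should the counts include PCR copies, the true error is wider. With 1 suspension per culture and cells that are not replicates, no test between groups was possible and no p-value is given. Differences are given as log2 ratios after adding 1 CPM to both levels, which understates changes of low genes, and a member was counted as higher or lower when it reached 5 CPM in either group and its log2 ratio reached 1, a 2-fold difference. The label of intestinal epithelium fitted the markers: Epcam stood at 1458 CPM in collagen and 1076 CPM in Matrigel, while the summed fibroblast, immune and endothelial markers stood at 0.757, 1.14 and 1.69 CPM in collagen and at 0.807, 0.913 and 1.49 CPM in Matrigel.

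Within Matrigel, 99 cells with Rbp2 at 100 CPM or more were called Rbp2-high, since Rbp2 encodes a retinol-binding protein of enterocytes. The remaining cells were split into 1256 with a listed value of Olfm4, a marker of crypt stem cells, and 244 without. Within collagen, 101 cells with Muc3, a membrane mucin of the brush border, at 100 CPM or more were set against the other 235. These classes are ranges of 1 marker's level and not cell types: 65 Matrigel cells lay between 50 and 100 CPM of Rbp2 and 41 between 100 and 200 CPM, and 35 and 32 collagen cells lay in the same ranges of Muc3. Other markers moved with the classes. Leaving out Rbp2 itself, enterocyte markers summed to 9121 CPM in Rbp2-high and 429 CPM in Olfm4-positive cells (7 of 7 reaching 5 CPM were higher). Leaving out Olfm4, stem markers summed to 303 and 1211 CPM (5 of 5 lower), and S-phase genes to 397 and 1112 CPM. Rbp2-high cells also held enteroendocrine markers, at 284 CPM against 0.422 CPM in Olfm4-positive cells (3 of 3 higher). Paneth and goblet markers were lower in them (4 of 4 and 3 of 3). Olfm4-negative cells were mixed, with Paneth markers at 4587 CPM against 275 CPM in Olfm4-positive cells, goblet markers at 4365 against 403 CPM and enterocyte markers without Rbp2 at 813 against 429 CPM (3 of 6 higher). Their enteroendocrine markers summed to 762 against 0.422 CPM (4 of 4 higher). Of these 244 cells, 187 listed none of the secretory markers Lyz1, Defa24, Agr2, Fcgbp and Chgb. Between the cultures, stem markers, with Olfm4 included, summed to 270 CPM in collagen and 2715 CPM in Matrigel (6 of 6 lower in collagen). Without Olfm4, which is among the genes listed without low values, they summed to 239 and 1078 CPM (5 of 5 lower). S-phase genes summed to 330 and 1032 CPM (9 of 10 lower). Genes of the G2/M phase did not follow the S-phase genes, at 328 and 272 CPM (2 of 8 higher and 0 lower). Enterocyte markers, with Rbp2 included, were split, at 1491 and 1087 CPM (3 of 8 higher and 4 lower). Enteroendocrine markers summed to 632 and 119 CPM (2 of 3 higher). Paneth markers were split, with Lyz1 at 622 and 122 CPM, Defa30 at 0 and 54.9 CPM and Ang4 at 0 and 13.2 CPM, all 3 among genes listed without low values. The part of these differences in the carrier levels was not tested, except where values without secretory cells are given.

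The promoter windows of the 2 adenine nucleotide translocases and of the 2 ATP-magnesium/phosphate carriers are shown because the levels of these paralogs went different ways between the cultures. Each window holds 250 bases before and 50 after the annotated start, 5′ to 3′ on the gene's strand, from RefSeq on GRCm38.p6, whereas the counts were made on GRCm39. They lie at chr8:46211013-46211312 on the minus strand for Slc25a4, chrX:36795347-36795646 on the plus strand for Slc25a5, chr3:109122899-109123198 on the plus strand for Slc25a24 and chr17:57059814-57060113 on the minus strand for Slc25a23, which has 2 windows in the table, the first shown. Capitals mark matches on either strand to TATAA (the TATA box), CCAAT (the CCAAT box), GGGCGG (the GC box) and GGAATG (a site of TEAD factors).
Slc25a4: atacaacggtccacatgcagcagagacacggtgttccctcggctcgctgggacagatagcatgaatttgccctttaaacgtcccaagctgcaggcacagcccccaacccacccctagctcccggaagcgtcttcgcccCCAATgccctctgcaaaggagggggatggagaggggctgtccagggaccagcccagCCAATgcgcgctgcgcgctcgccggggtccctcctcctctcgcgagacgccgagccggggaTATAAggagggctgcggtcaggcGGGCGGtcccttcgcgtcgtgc
Slc25a5: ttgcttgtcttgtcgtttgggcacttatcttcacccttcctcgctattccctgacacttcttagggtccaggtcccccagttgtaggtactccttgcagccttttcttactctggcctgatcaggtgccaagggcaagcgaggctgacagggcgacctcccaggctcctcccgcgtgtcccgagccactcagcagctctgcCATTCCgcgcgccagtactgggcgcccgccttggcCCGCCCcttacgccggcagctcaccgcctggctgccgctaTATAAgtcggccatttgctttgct
Slc25a24: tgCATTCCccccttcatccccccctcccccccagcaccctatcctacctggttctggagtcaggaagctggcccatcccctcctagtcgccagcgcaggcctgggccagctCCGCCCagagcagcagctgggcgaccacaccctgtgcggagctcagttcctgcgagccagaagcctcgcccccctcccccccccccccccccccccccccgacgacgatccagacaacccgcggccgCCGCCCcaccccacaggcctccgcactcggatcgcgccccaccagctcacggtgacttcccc
Slc25a23: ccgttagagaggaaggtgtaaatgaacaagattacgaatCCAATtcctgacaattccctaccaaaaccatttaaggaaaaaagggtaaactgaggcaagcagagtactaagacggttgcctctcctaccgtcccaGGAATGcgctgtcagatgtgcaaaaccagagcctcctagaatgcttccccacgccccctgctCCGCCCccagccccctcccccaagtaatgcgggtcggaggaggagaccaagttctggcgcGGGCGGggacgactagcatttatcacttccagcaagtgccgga
Slc25a4 and Slc25a5 each held 1 match to TATAA, a motif found in 24.9% of all 32851 windows, and Slc25a24 and Slc25a23 held none. The 2 matches began at positions 256 and 277 of their windows, so both lay after the annotated start and not before it. CCAAT, in 37.4% of all windows, had 2 matches in Slc25a4, 1 in Slc25a23 and none in Slc25a5 or Slc25a24. GGGCGG, in 35.7% of all windows, was in all 4, and in 38 of the 46 windows of the 36 members found in the table. GGAATG, in 14.7% of all windows, was in 3 of them and not in Slc25a4. The E box CACGTG, the AP-1 site TGANTCA and the nuclear receptor site AGGTCA, in 7.15%, 7.81% and 16.3% of all windows, had no match in any of the 4. The GC content was 65.7% for Slc25a4, 61% for Slc25a5, 72.3% for Slc25a24 and 54% for Slc25a23, against a median of 52.7% over all windows. A match describes letters and not binding, and the motifs were chosen with the sequences in view.

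The family held a similar share of the transcriptome in both cultures, and a few members made up most of it. The 48 rows summed to 2600 CPM in collagen and 2518 CPM in Matrigel. In Rbp2-high cells they summed to 2931 CPM, against 2493 CPM in Olfm4-positive and 2469 CPM in Olfm4-negative cells. Slc25a5, Slc25a3 and Slc25a4 held 62.5% of the family's counts in collagen and 64.2% in Matrigel. In CPM the order in collagen began with Slc25a5, Slc25a3, Slc25a4, Slc25a1, Slc25a39 and Slc25a20, and in Matrigel with Slc25a5, Slc25a3, Slc25a39, Slc25a1, Slc25a4 and Slc25a15. Neighbours among these 6 had intervals that did not overlap, but Slc25a11 and Slc25a24 overlapped at places 7 and 8 in collagen, as did Slc25a20 with Slc25a13, and Slc25a13 with Slc25a17, at places 9 to 11 in Matrigel. Per kilobase of the longest annotated transcript the same 5 members led both cultures. On that scale collagen cells had 705 CPM per kilobase of Slc25a5, 134 of Slc25a4, 125 of Slc25a1, 122 of Slc25a3 and 76.9 of Slc25a39, and Matrigel cells had 786 of Slc25a5, 131 of Slc25a3, 102 of Slc25a39, 98.6 of Slc25a1 and 59.1 of Slc25a4. At the other end, 12 members were under 1 CPM in collagen and 9 in Matrigel.

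**Figure D1:**
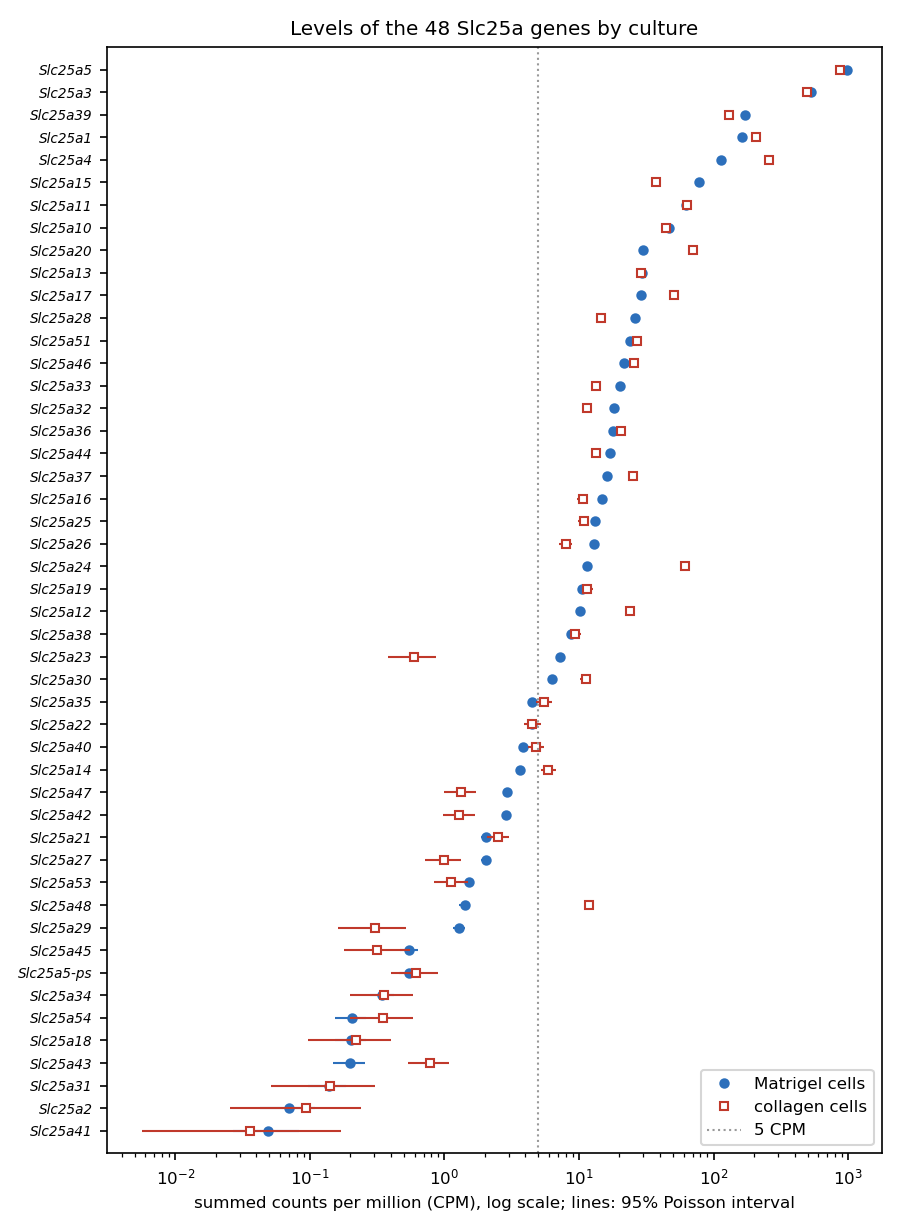
Summed level of each of the 48 Slc25a rows in Matrigel cells (filled circles) and collagen cells (open squares), in CPM on a log axis, with 95% Poisson intervals as lines and 5 CPM as a dotted line. Most pairs of points lie close together, while Slc25a24 and Slc25a48 stand to the right in collagen and Slc25a23 to the left.

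Between the cultures, 5 members were higher and 2 lower in collagen, among the 31 members that reached 5 CPM. Higher were Slc25a48, Slc25a24, Slc25a20, Slc25a4 and Slc25a12, and lower were Slc25a23 and Slc25a15. That was 22.6% of these members, against 17.1% of all 10593 genes reaching 5 CPM, so the family as a whole lay near the background of this comparison. By direction, 16.1% of the members and 8.21% of all genes were higher, and 6.45% and 8.91% were lower. The median log2 ratio was 0.09 over the members and -0.02 over all genes, and 9 of the 31 members lay within 0.25 of 0. The other 17 members did not reach 5 CPM in either culture. The members just inside the 2-fold limit were Slc25a17 and Slc25a28, and the one just past it was Slc25a15.

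The comparisons inside each culture also gave shares of members close to the background when both directions were counted together, on few members each. Rbp2-high against Olfm4-positive cells had 3 members higher (Slc25a45, Slc25a24 and Slc25a20) and 2 lower (Slc25a23 and Slc25a4) among 29 that reached 5 CPM, or 17.2%, against 13.3% of all 10373 genes. By direction, 10.3% of the members and 5.88% of all genes were higher, and 6.9% and 7.38% were lower. The median log2 ratio there was 0.11 over the members and -0.11 over all genes, so the members' ratios read 0.11 higher when the median of all genes is set to 0. When 1 count of Rbp2 or more sufficed for the class, 0 members were higher and 0 lower. Olfm4-negative against Olfm4-positive cells had 1 member higher (Slc25a35) and 0 lower of 29, or 3.45%, against 3.08% of all genes (2.6% higher and 0.482% lower). Slc25a24 lay just inside the limit in that comparison, with a log2 ratio of 0.97. Muc3-high against Muc3-low cells had 0 higher and 2 lower (Slc25a35 and Slc25a48) of 30, or 6.67%, against 5.21% of all genes (1.49% higher and 3.73% lower). The collagen and Rbp2-high comparisons share Matrigel cells, so their ratios for the same member are not independent.

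**Figure D2:**
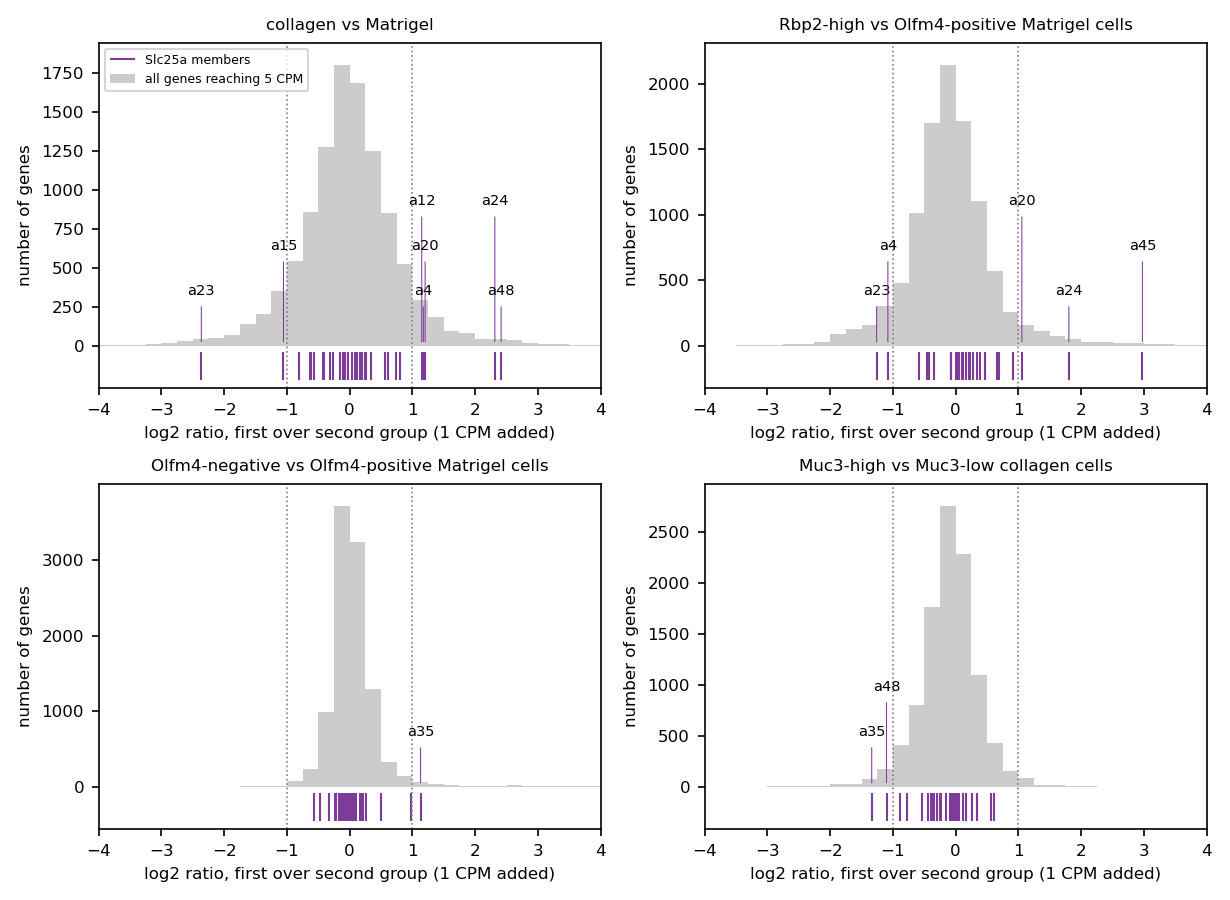
Log2 ratios (1 CPM added) of all genes reaching 5 CPM (grey bars, number of genes) and of the Slc25a members reaching 5 CPM (purple ticks) in the 4 comparisons, with dotted lines at a 2-fold difference and the members beyond it labelled without their Slc25 prefix. Genes beyond 4 are not drawn. The ticks lie within the range of the bars, with 7 members beyond the lines for collagen against Matrigel, 5 for Rbp2-high, 1 for Olfm4-negative and 2 for Muc3-high cells.

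The adenine nucleotide translocases exchange cytosolic ADP for matrix ATP, and their main members here went apart. Slc25a5, encoding the translocase of dividing and many other cells, stood at 874 CPM in collagen (interval 865 to 883) and 975 CPM in Matrigel (971 to 979). Within Matrigel it was at 955 CPM in Olfm4-positive, 983 CPM in Olfm4-negative and 1204 CPM in Rbp2-high cells. Its levels were thus close in all groups, with a log2 ratio of -0.16 between the cultures and 0.33 between Rbp2-high and Olfm4-positive cells. A fraction was listed in 25.5% of its nonzero values, as reads shared with near-identical copies can give. That share counts cell values and does not measure how uncertain the summed level is. The pseudogene Slc25a5-ps was at 0.61 CPM in collagen and 0.543 CPM in Matrigel.

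Slc25a4, the translocase best known from heart and muscle, stood at 258 CPM in collagen (253 to 263) and 114 CPM in Matrigel (113 to 115). Within Matrigel it was at 123 CPM in Olfm4-positive (121 to 124), 88.1 CPM in Olfm4-negative (85.1 to 91.2) and 57.5 CPM in Rbp2-high cells (54 to 61). It was thus highest in collagen and lowest in Rbp2-high cells, with log2 ratios of 1.17 between the cultures and -1.08 between Rbp2-high and Olfm4-positive cells. The second lay at the 2-fold limit and fell short of it at -0.97 when the median of all genes was set to 0, at -0.99 as a mean over cells and at -0.35 when 1 count of Rbp2 sufficed. Over single cells the median was 236 CPM in collagen (quartiles 144 and 340) and 97.2 CPM in Matrigel (45.7 and 160), so the middle ranges overlapped. In collagen, Muc3-high cells had 217 CPM and Muc3-low cells 274 CPM. The ratio of Slc25a4 to Slc25a5 in CPM was 0.295 in collagen and 0.117 in Matrigel, and inside Matrigel 0.128 in Olfm4-positive, 0.0896 in Olfm4-negative and 0.0477 in Rbp2-high cells. Slc25a31, the translocase known from testis, was at 0.141 and 0.138 CPM in the cultures. Slc25a3, which imports phosphate for the same ATP synthesis, differed little, with 493 CPM in collagen and 528 CPM in Matrigel and 610 CPM in Rbp2-high against 527 CPM in Olfm4-positive cells.

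The genes of the ATP synthase itself, which uses what these carriers bring in, moved less. None of its 12 measured subunit genes was 2-fold different between the cultures, with a median log2 ratio of -0.31. Slc25a4 was thus higher in collagen while most subunit genes were lower, for example Atp5b at 920 CPM in collagen and 1177 CPM in Matrigel. The largest difference among the 12 was that of Atp5g1, at 485 and 848 CPM, a log2 ratio of -0.80. In Rbp2-high against Olfm4-positive cells the median was 0.27, again with none at 2-fold. The outer membrane channels, through which these solutes reach the carriers, included Vdac1 at 248 and 249 CPM and Vdac2 at 488 CPM in collagen and 313 CPM in Matrigel.

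The ATP-magnesium/phosphate carriers change the matrix pool of adenine nucleotides and are opened by cytosolic calcium, and of the paralog sets named here they differed most between the cultures. Slc25a24 stood at 61.2 CPM in collagen (58.9 to 63.6) and 11.5 CPM in Matrigel (11.1 to 11.9), a log2 ratio of 2.31. Slc25a23 stood at 0.596 CPM in collagen (0.38 to 0.868) and 7.21 CPM in Matrigel (6.9 to 7.53), a log2 ratio of -2.36. The third paralog of this type, Slc25a25, stayed close, with 10.8 CPM in collagen and 13.2 CPM in Matrigel. In CPM the ratio of Slc25a24 to Slc25a23 was 103 in collagen and 1.60 in Matrigel.

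The same pair differed along the Matrigel classes. Slc25a24 was at 8.72 CPM in Olfm4-positive (8.34 to 9.11), 18.1 CPM in Olfm4-negative (16.7 to 19.5) and 33 CPM in Rbp2-high cells (30.4 to 35.7). Slc25a23 was at 7.93 CPM in Olfm4-positive (7.57 to 8.3), 5.03 CPM in Olfm4-negative (4.33 to 5.79) and 2.73 CPM in Rbp2-high cells (2.03 to 3.6). With all cells of the classes, the intervals of the 3 classes did not overlap for either gene. Without the cells listing a secretory marker, Slc25a23 was at 7.91 CPM in Olfm4-positive, 3.62 CPM in Olfm4-negative and 2.86 CPM in Rbp2-high cells. The last 2 were then closer together. Slc25a24 was at 8.73, 16.3 and 33.1 CPM in the same order. Intervals were not computed for these values. The log2 ratio of Rbp2-high to Olfm4-positive cells was 1.80 for Slc25a24 and -1.26 for Slc25a23. Slc25a24 was still higher in collagen than in Rbp2-high cells, at 53.8 CPM in Muc3-low (51.2 to 56.5) and 80.2 CPM in Muc3-high cells (75.2 to 85.4). After each cell was thinned to 77972 counts, 81.8% of collagen cells (Clopper-Pearson interval 76.6 to 86.3) and 35.9% of Matrigel cells (33.4 to 38.4) had a count of Slc25a24, against 78.3% and 46.5% without thinning. For Slc25a23 the thinned shares were 4.55% (2.37 to 7.81) and 26.7% (24.4 to 29), against 5.65% and 37.5% unthinned. Thinning left out 72 collagen and 122 Matrigel cells. No cell class here is known to lack these carriers, so a background share from free RNA could not be set. Slc25a41, a shorter relative, was below 0.05 CPM in both cultures, and the coenzyme A carrier Slc25a42 was at 1.29 and 2.89 CPM.

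**Figure D3:**
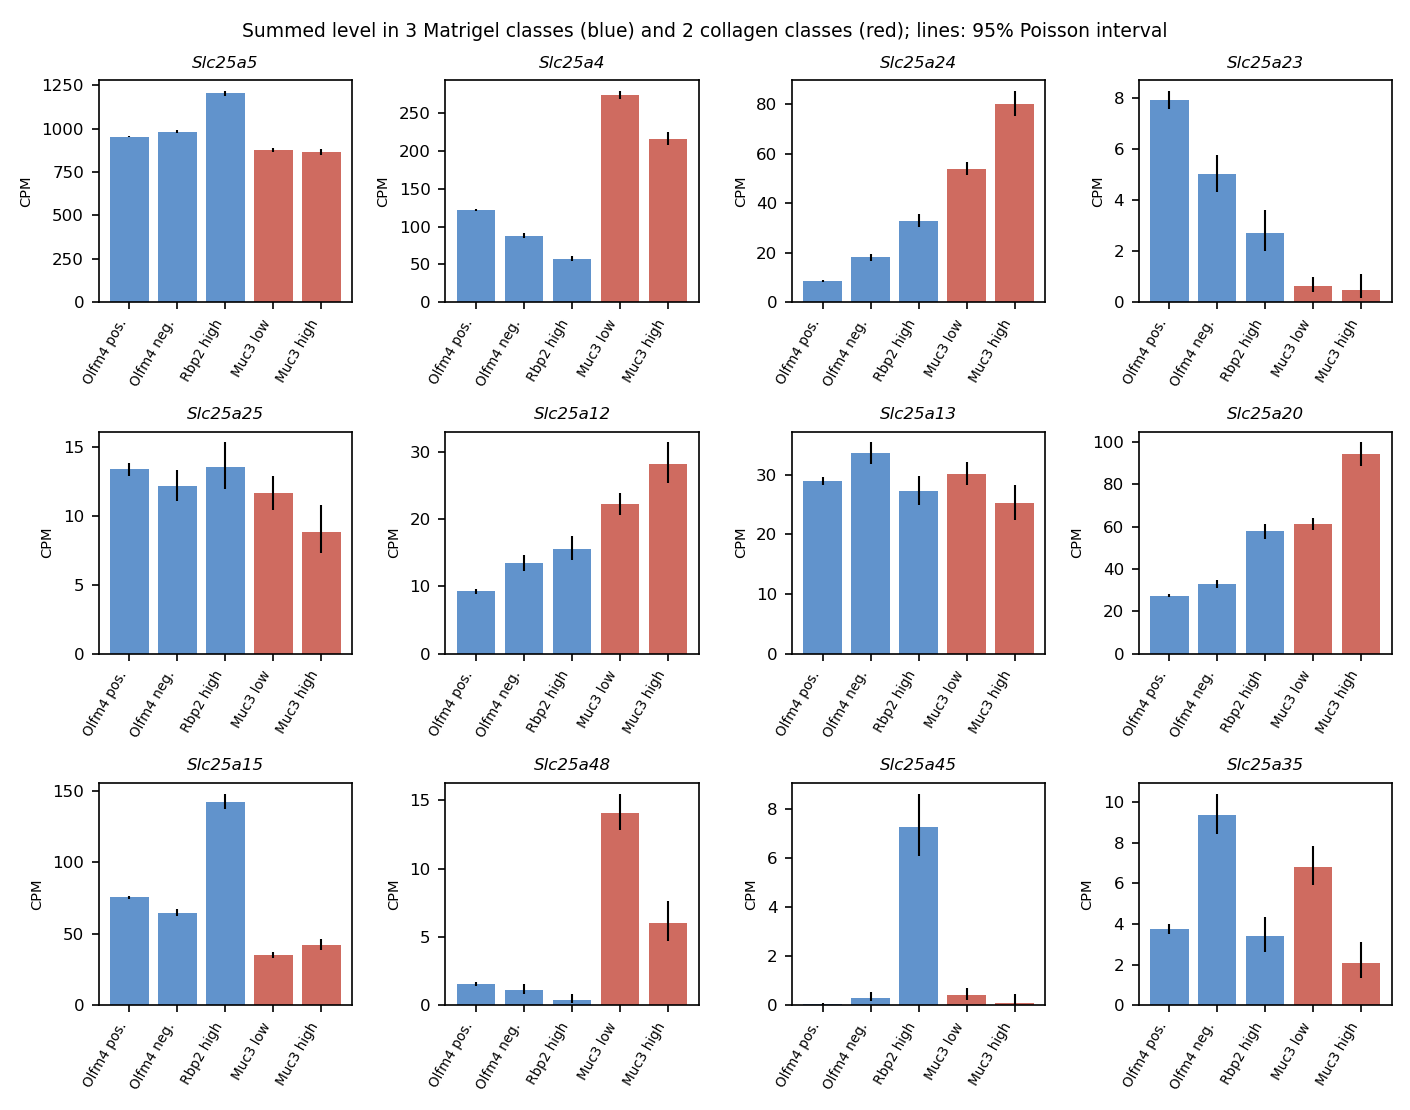
Summed level (CPM, bars from 0) of 12 members in Olfm4-positive, Olfm4-negative and Rbp2-high Matrigel cells (blue) and in Muc3-low and Muc3-high collagen cells (red), with 95% Poisson intervals as black lines. From the first to the last class Slc25a24 is higher at each step, from 8.72 to 80.2 CPM. Slc25a23 is lower at each step over the Matrigel classes, from 7.93 CPM. It is under 1 CPM in both collagen classes, with 0.461 CPM in Muc3-high cells, on few counts and with overlapping intervals. Slc25a15 is highest in Rbp2-high cells.

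Slc25a20, which exchanges acylcarnitines for carnitine and so feeds fatty acids to oxidation in the matrix, was higher both in collagen and in Rbp2-high cells. It stood at 70.4 CPM in collagen (67.9 to 72.9) and 30 CPM in Matrigel (29.4 to 30.7). Within Matrigel it was at 27.3 CPM in Olfm4-positive, 33 CPM in Olfm4-negative and 57.8 CPM in Rbp2-high cells (54.4 to 61.4). The log2 ratio was 1.20 between the cultures and 1.06 between Rbp2-high and Olfm4-positive cells, where it was 0.98 as a mean over cells and 0.80 without the 10 cells of each class that held most counts. Inside collagen, Muc3-high cells had 94.3 CPM (88.8 to 99.9) and Muc3-low cells 61.1 CPM (58.3 to 63.9).

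Enzymes of the same route were compared from a list of 8. All 8 reached 5 CPM, 2 were 2-fold higher in collagen and none lower, beside 8.21% and 8.91% of all genes, with a median log2 ratio of 0.64. The 2 were Cpt1a, which makes acylcarnitines at the outer membrane, at 109 CPM in collagen and 50.9 CPM in Matrigel, and Acadl, which starts the oxidation of long chains, at 224 and 82.7 CPM. In Rbp2-high against Olfm4-positive cells 5 of the 8 were 2-fold higher and none lower, beside 5.88% and 7.38% of all genes, with a median of 1.13, and Cpt2, which hands the acyl group back to coenzyme A, stood at 77.2 and 31.7 CPM. The peroxisomal carrier Slc25a17, which moves cofactors such as coenzyme A into peroxisomes, stayed just under 2-fold between the cultures, with 50.9 CPM in collagen, 28.9 CPM in Matrigel and a log2 ratio of 0.80. Unlike Slc25a20 it was lower in Rbp2-high (22.2 CPM) than in Olfm4-positive cells (30.2 CPM).

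Slc25a15, which brings ornithine into the matrix for the urea cycle and for citrulline synthesis, was lower in collagen and highest in Rbp2-high cells. It stood at 37.2 CPM in collagen (35.4 to 39) and 78.3 CPM in Matrigel (77.3 to 79.3), a log2 ratio of -1.05. Within Matrigel it was at 75.4 CPM in Olfm4-positive (74.3 to 76.5), 64.8 CPM in Olfm4-negative (62.3 to 67.4) and 142 CPM in Rbp2-high cells (137 to 148), a log2 ratio of 0.91 for the last against the first. The median over cells was 14.5 CPM in collagen and 67.6 CPM in Matrigel. The difference between the cultures lay at the 2-fold limit, with log2 ratios of -0.99 in thinned cells and -0.93 when the culture was set by a hashtag share of 60%. Slc25a2, its relative, was at 0.094 CPM in collagen and 0.0701 CPM in Matrigel.

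Of the 7 urea cycle and ornithine enzymes, 6 reached 5 CPM and 5 of them were 2-fold lower in collagen, beside 8.91% of all genes, and none higher, with a median log2 ratio of -2.09. Cps1, which makes carbamoyl phosphate in the matrix, was at 69.4 CPM in collagen and 660 CPM in Matrigel. Otc, which joins it to the imported ornithine, was at 15.6 and 109 CPM, Oat, which links ornithine to glutamate and proline, at 44.8 and 94.7 CPM, and Ass1, the next step in the cytosol, at 1.86 and 18.3 CPM. Inside Matrigel these partners went different ways. In Rbp2-high against Olfm4-positive cells 2 were higher and 1 lower, beside 5.88% and 7.38% of all genes: the arginase Arg2 was at 149 against 1.47 CPM and Oat at 188 against 88.7 CPM, while Ass1 was at 7.09 against 19.4 CPM. Cps1 was at 499 and 700 CPM and Otc at 153 and 108 CPM, both within 2-fold.

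The aspartate/glutamate carriers of the malate-aspartate shuttle, which moves reducing power into the matrix, also differed between paralogs. Slc25a12 (aralar) stood at 23.9 CPM in collagen (22.4 to 25.4) and 10.2 CPM in Matrigel (9.86 to 10.6), a log2 ratio of 1.15. Slc25a13 (citrin) stood at 28.8 CPM in collagen (27.2 to 30.5) and 29.4 CPM in Matrigel (28.8 to 30.1), with intervals that overlapped. In CPM the ratio of the first to the second was 0.829 in collagen and 0.347 in Matrigel. Inside Matrigel Slc25a12 was at 9.26 CPM in Olfm4-positive, 13.5 CPM in Olfm4-negative and 15.6 CPM in Rbp2-high cells, a log2 ratio of 0.70 for the last against the first. Of the 4 shuttle enzymes, Mdh2, the malate dehydrogenase of the matrix, was higher, at 1178 CPM in collagen and 495 CPM in Matrigel and at 1333 CPM in Rbp2-high and 404 CPM in Olfm4-positive cells. The other three stayed within 2-fold in both comparisons, Got2 at 86.9 CPM in collagen and 134 CPM in Matrigel, Mdh1 at 200 and 314 CPM and Got1 at 30.7 and 23.1 CPM. Slc25a11, the oxoglutarate/malate carrier that completes the shuttle, was at 63.3 and 62 CPM. The glutamate carriers Slc25a22 and Slc25a18 were at 4.5 and 0.22 CPM in collagen and at 4.44 and 0.204 CPM in Matrigel.

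**Figure D4:**
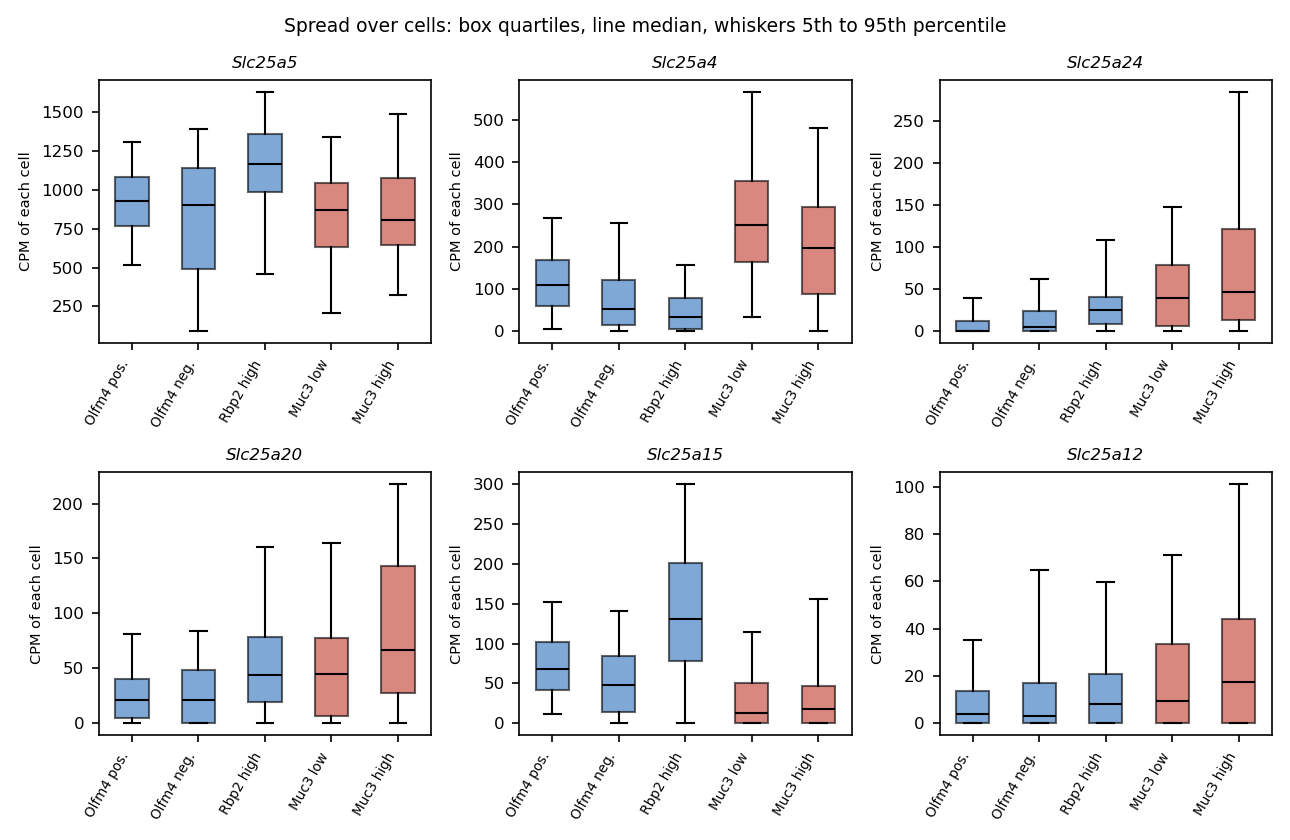
Spread over single cells of the CPM of 6 members in the 3 Matrigel classes (blue) and 2 collagen classes (red), with boxes at the quartiles, a line at the median and whiskers at the 5th and 95th percentiles. For Slc25a4 the medians fall from 110 CPM in Olfm4-positive to 33 CPM in Rbp2-high cells and lie at 252 and 196 CPM in the collagen classes, with overlapping whiskers throughout.

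The other abundant carriers differed less. Slc25a1, which exports citrate for fatty acid synthesis, was at 207 CPM in collagen (203 to 212) and 164 CPM in Matrigel (163 to 166), a log2 ratio of 0.34. Its level was 235 CPM in Muc3-high and 197 CPM in Muc3-low cells, and 176 CPM in Rbp2-high and 163 CPM in Olfm4-positive cells. Acly, which splits the exported citrate, was at 73.8 and 64.7 CPM in the cultures, and none of the 5 genes of citrate use was 2-fold different there. The dicarboxylate carrier Slc25a10 was at 44.5 and 46.6 CPM. All 3 di- and tricarboxylate carriers that reached 5 CPM were within 2-fold in all 4 comparisons.

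The glutathione importer Slc25a39 was at 130 CPM in collagen (126 to 133) and 172 CPM in Matrigel (170 to 174), a log2 ratio of -0.41, and its paralog Slc25a40 at 4.81 and 3.82 CPM. Inside Matrigel Slc25a39 was nearly level, from 171 to 177 CPM over the 3 classes. The pyrimidine nucleotide carriers Slc25a33 and Slc25a36 were at 13.3 and 20.5 CPM in collagen and at 20.3 and 17.8 CPM in Matrigel. The folate carrier Slc25a32 was at 11.5 and 18.3 CPM and the S-adenosylmethionine carrier Slc25a26 at 8 and 12.9 CPM. None of the 7 cofactor carriers that reached 5 CPM was 2-fold different between the cultures, and their median log2 ratio was -0.41. Among the mitochondrial one-carbon enzymes, which work with folate in the matrix, Shmt2 was at 57.2 CPM in collagen and 118 CPM in Matrigel, the 1 of 4 that was 2-fold lower (beside 8.91% of all genes), and Mthfd2 at 46.7 and 88.6 CPM.

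The mitoferrins, which import iron for heme and iron-sulfur clusters, leaned in opposite directions without reaching 2-fold. Slc25a37 was at 25 CPM in collagen (23.6 to 26.6) and 16.1 CPM in Matrigel (15.7 to 16.6), and Slc25a28 at 14.7 CPM (13.6 to 15.9) and 26.3 CPM (25.7 to 26.9). The ratio of Slc25a37 to Slc25a28 in CPM was 1.70 in collagen and 0.612 in Matrigel. Inside Matrigel both were higher in Rbp2-high than in Olfm4-positive cells, Slc25a37 at 25.4 against 15.7 CPM and Slc25a28 at 35.7 against 25.6 CPM. None of the 8 heme and iron-sulfur genes was 2-fold different between the cultures. Alas1, the first enzyme of heme synthesis, was at 43.1 and 25.1 CPM and Fech, the last, at 16 and 15.3 CPM.

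Among the less defined members, Slc25a48, described as a mitochondrial choline transporter, had the highest ratio between the cultures. It stood at 11.8 CPM in collagen (10.8 to 12.9) and 1.41 CPM in Matrigel (1.28 to 1.56), a log2 ratio of 2.41. The counts lay in 86 collagen cells, and the 10 with most counts held 34.9% of them. In thinned cells 25.4% of collagen cells (20.2 to 31.1) and 5.75% of Matrigel cells (4.62 to 7.07) had a count, against 25.6% and 9.51% unthinned. Inside collagen it was at 14.1 CPM in Muc3-low (12.8 to 15.5) and 6.04 CPM in Muc3-high cells (4.72 to 7.6), a log2 ratio of -1.10. Secretory markers moved with these classes, with Paneth markers at 2333 CPM in Muc3-low and 6.88 CPM in Muc3-high cells. Without the cells that listed Lyz1, Defa24, Agr2, Fcgbp or Chgb, Slc25a48 was at 12.2 CPM in collagen and 1.39 CPM in Matrigel, and at 14.9 CPM in Muc3-low and 5.78 CPM in Muc3-high cells.

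Slc25a45 was 2-fold different between Matrigel classes and Slc25a35 between classes of both cultures, and the counts of each rested on few cells. Slc25a45 was at 7.26 CPM in Rbp2-high cells (6.08 to 8.61), 0.306 CPM in Olfm4-negative cells and 0.0502 CPM in Olfm4-positive cells, a log2 ratio of 2.98 for the first against the last. The counts lay in 17 Rbp2-high cells, 10 of which held 91% of them, and without the 10 cells with most counts in each class the log2 ratio was 0.81. Slc25a35 was at 9.38 CPM in Olfm4-negative (8.43 to 10.4) and 3.74 CPM in Olfm4-positive cells (3.5 to 4), a log2 ratio of 1.13. Of its counts in Olfm4-negative cells 51% lay in 10 cells. Without cells listing a secretory marker the ratio was 0.34, at 4.80 and 3.58 CPM. Inside collagen it was at 6.83 CPM in Muc3-low and 2.1 CPM in Muc3-high cells, a log2 ratio of -1.34 that fell short of 2-fold in thinned cells (-0.95) and with Muc3-high at 50 CPM (-0.50). Slc25a34, which did not reach 5 CPM, was at 2.73 CPM in Rbp2-high (2.03 to 3.6) and 0.147 CPM in Olfm4-positive cells (0.103 to 0.207).

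Of the 10 genes that bring carriers into the inner membrane, 4 were 2-fold lower in collagen and none higher, beside 8.91% and 8.21% of all genes, with a median log2 ratio of -0.68. Timm9 and Timm10, the small chaperones of the space between the membranes, were at 22.2 and 30.1 CPM in collagen and at 73.3 and 77.7 CPM in Matrigel, Tomm40, the outer membrane pore, at 46.9 and 115 CPM, and Agk, a part of the insertion complex, at 1.43 and 7.06 CPM. None of the 10 was 2-fold different in Rbp2-high against Olfm4-positive cells. Of the 7 relatives with other symbols and pyruvate carrier subunits, 5 reached 5 CPM and none was 2-fold different between the cultures, with Ucp2, an uncoupling protein relative, at 366 CPM in collagen and 356 CPM in Matrigel and Mpc2, a subunit of the pyruvate carrier, at 107 and 190 CPM.

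Across single cells the thinned counts of the abundant members showed mostly low rank correlations. In each culture 6 members had a median of at least 5 thinned counts, Slc25a1, Slc25a3, Slc25a4, Slc25a5 and Slc25a39 in both, with Slc25a15 in Matrigel and Slc25a11 in collagen. Spearman's rho over their 15 pairs ran from -0.07 to 0.26 across 1477 Matrigel cells and, over the 15 pairs of the other set, from -0.12 to 0.32 across 264 collagen cells. The highest in both was Slc25a3 with Slc25a5. The cells share a library and the counts are sparse, which can lower rho. These values are therefore given as descriptions and cannot show that the members vary independently.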

How the data were processed

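The part of the data used here was 1 table from 1 cDNA library of pooled collagen and Matrigel cells, with each cell's culture taken from the hashtag in its name. Its deposited values are unscaled expected counts, whole (within 1e-06) in 75.6% of the nonzero entries. No source used here says whether PCR copies were collapsed. The tools in the submitters' processing notes are STARsolo 2.7.10a, cutadapt 4.1 and R 4.2.1, and the build is GRCm39. The deposited hashtag counts cover 200497 barcodes, including all 2090 cells, and 9 further hashtag columns were not used.

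Cells under 500 genes or over 30% mitochondrial counts were removed (16 of 1615 Matrigel and 0 of 336 collagen cells), and 139 cells named doublets were left out. No doublet caller was run. Olfm4 is 1 of 49 genes listed without low values (its smallest is 12), and none of the members is among them. Sums were rounded for intervals. The median depth was 200263 counts per cell in Rbp2-high, 181078 in Olfm4-positive, 157582 in Olfm4-negative, 117122 in Muc3-high and 127267 in Muc3-low cells. Transcript lengths came from GENCODE on GRCm38, and 11 list symbols were matched by synonym. Calculations used Python 3.11.15, numpy 2.4.6, pandas 2.3.3 and scipy 1.17.1, and were tested on simulated data.

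The members, the lists and the class limits were chosen with earlier results of these data known. Named in full were members reaching 50 CPM in either culture, members 2-fold different in any comparison, and paralog pairs. Others are given by counts, with a few named after their values were seen (Slc25a10, Slc25a26, Slc25a32, Slc25a34, Slc25a41 and Slc25a42). Of the related lists, partner genes and up to 4 members with the largest differences were named. Agk (below the 10 CPM of that rule), Atp5b and Oat were added after their values were seen.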

Additional observations from a re-analysis of the deposited data

How the results depend on the processing

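All 15 member ratios that reached 2-fold kept their sign in all 167 alternative values that could change a ratio, 151 of which stayed 2-fold, and 7 of the 15 stayed 2-fold in every one. The alternatives changed the scaling, the added constant, depth by thinning, the mean over cells, the hashtag share and the class limits. The low-level limit was changed as well, but it alters only the counts of members and is not among the 167 values. Leaving out the 10 highest cells of a group or the cells listing a secretory marker was added after seeing the data. In collagen against Matrigel, the members lower fell from 2 to 1 with a limit of 20 CPM, in thinned cells and at a hashtag share of 60%, and those higher from 5 to 4 with the limit of 20 CPM. In Rbp2-high against Olfm4-positive cells, the members lower went from 2 to 1 when scaled to a median of 0, with a limit of 20 CPM and with a mean over cells, to 0 when any Rbp2 count sufficed and to 4 with Rbp2-high at 500 CPM, and the members higher from 3 to 0 and 5 under the last 2, to 2 with a limit of 20 CPM or a mean over cells, and to 4 when scaled or with every member counted, where 3 were lower. Ratios that then fell under 2-fold included Slc25a4 (-0.97 when scaled, -0.99 as a mean over cells). With any Rbp2 count, Slc25a24 was at 0.52, Slc25a20 at 0.33, Slc25a4 at -0.35 and Slc25a23 at -0.53. In Olfm4-negative cells the members higher went from 1 to 2 with 0.1 CPM added and to 0 with a limit of 20 CPM, with Olfm4-positive at 200 CPM and without cells listing a secretory marker. In Muc3-high cells the members lower went from 2 to 0 with a limit of 20 CPM to 1 in thinned cells and with Muc3-high at 50 CPM, and to 3 with a mean over cells. Limits of 20 CPM test fewer members by construction, and for the other changes the cause was not tested. No paired analysis was possible because each culture was 1 suspension. Levels of the rare members rest on few counts: 12 were under 1 CPM in collagen, with wide intervals.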

Other observations

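Cells named doublets by their hashtags, which entered no comparison, numbered 137 after the same cell limits. They held 136 CPM of Slc25a4, 21.1 CPM of Slc25a24, 9.13 CPM of Slc25a23, 2.19 CPM of Slc25a48, 68.3 CPM of Slc25a15 and 46.2 CPM of Slc25a20. Each of these levels but that of Slc25a23 lay between those of the collagen and the Matrigel cells. Slc25a23 was above both.

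Members under 5 CPM are not counted above, but a few differed between classes. Slc25a27, a relative of the uncoupling proteins, was at 2.26 CPM in Olfm4-positive (2.07 to 2.47) and 0.355 CPM in Rbp2-high cells (0.12 to 0.713). Slc25a29, a carrier of basic amino acids, was at 1.42 CPM (1.27 to 1.58) and 0.218 CPM (0.0595 to 0.559), and at 0.306 CPM in collagen against 1.28 CPM in Matrigel. Slc25a43 was at 0.782 CPM in collagen (0.534 to 1.09) and 0.197 CPM in Matrigel (0.148 to 0.255). These members were picked after their values were seen.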
